A study of Mus musculus with 14 samples.

Results

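The CD300 molecules are a family of myeloid cell surface receptors, and 6 of them were followed here in cultured mouse macrophages: Cd300a, Cd300e, Cd300lb, Cd300ld, Cd300lf and Cd300lg. They were taken by matching the RefSeq accession of each array probe to the gene, with their levels in all 4 groups of the study already known, so their differences are described and not tested. The 6 genes stand among 15834 genes tested and are read by 8 of 55634 probes, of which Cd300lf has 3. Of these 8 probes, 6 lay well above background on every array, and all 6 genes passed the filter on dim probes.

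CD300 receptors have a single immunoglobulin-like domain that senses lipids displayed on dying or activated cells, such as phosphatidylserine and ceramide, and they tune how strongly a myeloid cell reacts. Cd300a and Cd300lf carry inhibitory motifs (ITIMs) in their own tails, which recruit the phosphatases SHP-1 and SHP-2. Cd300lb, Cd300ld and Cd300e have short tails and signal through activating adaptors, DAP12 (Tyrobp) or the Fc receptor gamma chain (Fcer1g). For Cd300e the pairing with DAP12 is known best from human monocytes. Cd300lg, also called nepmucin, is known mainly from endothelium, where it takes part in lymphocyte adhesion.

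The macrophages were grown with M-CSF for 1 week from bone marrow of female C57BL/6 mice aged 8 weeks. Every mouse carried LysM-Double-Cre, a Cre recombinase driven from the lysozyme M promoter of myeloid cells, and the TFEB-tg mice carried in addition a transgene for TFEB, a transcription factor of lysosome and autophagy genes. The TFEB-wt mice had Cre and no transgene. For the last 24 h the cells stood in plain DMEM (control) or in DMEM with medium conditioned by EO771 mammary tumour cells and tumour lysate (tumour material). The design asks how tumour material acts on cells of each genotype and how the genotypes differ in either medium. TFEB-wt control had 3 replicates on 4 arrays, TFEB-wt tumour material 3 on 4, TFEB-tg control 3 on 3 and TFEB-tg tumour material 2 on 3. TFEB-tg tumour material replicate 1 is not analysed here. The arrays lay on 2 slides, with all TFEB-tg tumour material arrays on slide 2. Replicates 1 and 2 of each other group were on slide 1. TFEB-tg control replicate 3 was on slide 2, and replicate 3 of both TFEB-wt groups had an array on each slide. The labels call the replicates biological without saying whether each came from a separate animal. The p-values below measure the spread between these samples and between repeat arrays. In the fit a second array counted nearly as a further replicate, since the correlation of such arrays was 0.0717.

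Between 35.5% and 40.2% of spots per array were well above background, and the number of arrays limits the precision. TFEB-tg control replicate 1 stood apart, with correlations over genes of 0.957 and 0.959 to TFEB-tg control replicates 2 and 3, whose own correlation was 0.981, while replicates of each remaining group correlated at 0.988 or more. The 3 arrays in slide column 4 (TFEB-tg control replicates 1 and 2, and the second array of TFEB-tg tumour material replicate 3) also took a larger spatial correction by the scanner software. Tfeb itself was 0.31 (SE 0.13) higher on the log2 scale in TFEB-tg than in TFEB-wt control cells (adjusted p = 0.164, limma), a difference of 0.05 on slide 2 and of -0.01 without slide column 4. Among cells with tumour material, Tfeb was 0.69 (SE 0.16) higher in TFEB-tg than in TFEB-wt cells (adjusted p = 0.0265, limma). Leaving out 1 replicate moved that adjusted p to as much as 0.201 (without TFEB-tg tumour material replicate 3). Against control medium, Tfeb was lower with tumour material. The log2 difference was -1.55 (SE 0.12, adjusted p = 1.67e-06, limma) in TFEB-wt and -1.16 (SE 0.16, adjusted p = 0.000233) in TFEB-tg cells. A cell type marker is counted here and below as above background in a group if it was so on some array of that group. Of 10 macrophage markers, 9 or 10 were above background in each group. The exception was Lyz2, the gene into which LysM-Cre is inserted, which exceeded background on 4 of 14 arrays. None of 8 epithelial or tumour cell markers was above background in any group.

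On the mouse chromosome 11 of the RefSeq annotation, 5 of the 6 genes lie close together. Cd300a and Cd300lb are direct neighbours, Cd300ld follows after Cd300c and 1 other gene, then come Cd300c2 and 4 further Cd300ld-like genes, and Cd300e and Cd300lf close the row with 1 gene between them. Cd300lg lies apart, with 303 genes between it and Cd300a. Upstream sequences of 3 genes are shown because their levels followed 3 different courses across the groups. Cd300lf was higher with tumour material in both genotypes, Cd300lb was lower in both, and Cd300e was above background in all TFEB-wt replicates with tumour material but in none of the TFEB-tg ones. Each is the stretch of 250 bases before the annotated start in RefSeq's GRCm38.p6, from 5′ to 3′ on the gene's strand. Capitals mark the letters of a searched motif.
Cd300lf, chr11:115133993-115134242, minus strand: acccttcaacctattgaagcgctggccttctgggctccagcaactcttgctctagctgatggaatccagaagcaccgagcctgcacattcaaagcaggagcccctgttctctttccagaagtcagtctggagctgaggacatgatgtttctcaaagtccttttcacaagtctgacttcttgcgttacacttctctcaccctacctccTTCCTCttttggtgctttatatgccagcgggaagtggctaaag
Cd300lb, chr11:114934372-114934621, minus strand: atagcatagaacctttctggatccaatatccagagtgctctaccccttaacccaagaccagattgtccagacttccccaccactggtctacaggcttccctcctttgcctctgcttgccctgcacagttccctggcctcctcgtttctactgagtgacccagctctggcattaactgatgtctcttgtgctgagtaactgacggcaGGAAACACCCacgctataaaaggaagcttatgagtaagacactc
Cd300e, chr11:115062040-115062289, minus strand: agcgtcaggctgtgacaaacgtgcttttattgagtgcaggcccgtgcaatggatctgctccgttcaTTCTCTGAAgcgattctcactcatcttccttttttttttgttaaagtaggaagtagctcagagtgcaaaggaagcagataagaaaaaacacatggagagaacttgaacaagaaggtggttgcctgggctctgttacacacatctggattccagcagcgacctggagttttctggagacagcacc

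Promoter windows, from 250 bases before to 50 after the start, were found for 5 of the genes (Cd300a, Cd300e, Cd300lb, Cd300ld and Cd300lf), and both strands were searched. The capitals in Cd300lf are a reverse match to GAGGAA, the core that PU.1 binds, which begins 43 bases before the start. A further GAGGAA begins at the start itself. GAGGAA was also found in Cd300a, in reverse at 39 bases before the start, and in Cd300ld at 143 bases before it, so 3 of 5 windows held it, against 28.3% of all 32851 promoter windows. The capitals in Cd300lb are a reverse match to GGGNNNTTCC, an NF-kB type motif, at 44 bases before the start. Cd300ld held the same motif at 141 bases before the start, overlapping its GAGGAA, and 5.56% of all windows had it. The capitals in Cd300e match TTCNNNGAA, a STAT type motif, on both strands at 184 bases before the start, and 8.3% of all windows had it. Cd300a further held TTGCNNAA, a C/EBP type motif found in 10.8% of all windows. CACGTG, the E-box letters within TFEB's recognition element, occurred in none of the 5 windows and in 7.15% of all windows. The AP-1 type TGANTCA (7.81% of all windows) and the IRF type GAAANNGAAA (3.44%) were in none of the 5 either. These are matches of letters and do not show binding.

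Levels are given as log2 signal minus the log2 of the array's 75th percentile, so a level of 0 is as bright as that percentile and each step of 1 is a doubling. Levels of different genes are read by different probes and are not set against each other. In TFEB-wt cells, 4 of the 6 receptors were higher with tumour material in every replicate than in any control replicate (Cd300a, Cd300e, Cd300lf and Cd300lg) and 1 was lower (Cd300lb), while of all tested genes 32.1% separated as higher and 25.3% as lower. Replicates at background on all their arrays have no order, so groups that both held one were not counted as separated. In TFEB-tg cells, 2 were higher (Cd300lf and Cd300lg) and 1 lower (Cd300lb), against 29.2% and 20.7% of all genes. Between genotypes in control medium, 0 receptors were higher in TFEB-tg cells and 2 lower (Cd300a and Cd300lg), against 8.84% and 12.0% of all genes. With tumour material, 2 were higher in TFEB-tg cells (Cd300lb and Cd300lf) and 2 lower (Cd300a and Cd300e), against 21.6% and 25.5% of all genes. Separation was judged on levels without a slide term. As all TFEB-tg tumour material arrays were on slide 2, slide and group are partly mixed in the comparisons of that group. Since the family was chosen on these values, nothing is read from these counts.

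The median difference over the 6 receptors was 1.15 on the log2 scale for tumour material in TFEB-wt cells and 0.29 in TFEB-tg cells, beside 0.05 and 0.06 over all tested genes. Between genotypes it was -0.08 in control medium and -0.53 with tumour material, beside -0.03 and -0.01 over all genes. Single receptors ran in opposite directions behind these medians. The medians too come from a family chosen on these values, so nothing is read from them. They include the fitted differences of Cd300e, which rest on signals at background. Without TFEB-tg control replicate 1, which was at background for Cd300e, Cd300e and Cd300lb were higher in TFEB-tg than in TFEB-wt control, which made 2 receptors higher and 2 lower where 37.6% of all genes separated in either direction. Without it Cd300e was also lower with tumour material in TFEB-tg cells, where 63.5% of all genes separated. Leaving out slide column 4 gave the same receptors, but it leaves only 1 TFEB-tg control replicate, so separation says little there. In that setting 61.8% of all genes separated the genotypes in control medium and 86.6% separated tumour material in TFEB-tg cells. Comparisons that use the same group share its samples, so a high or low group enters 2 of them.

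**Figure D1:**
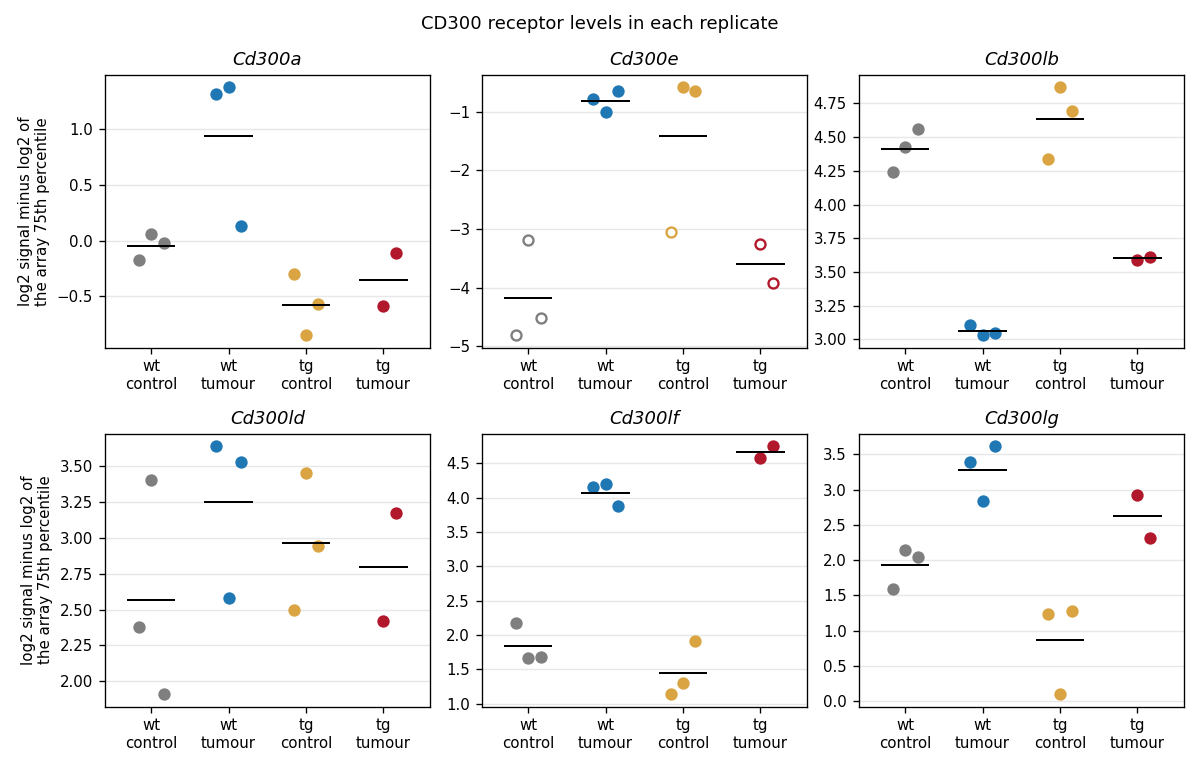
Level of each CD300 receptor (log2 signal minus log2 of the array's 75th percentile) in each replicate of the 4 groups, by its brightest probe. Points are replicates (repeat arrays averaged), open points are replicates whose arrays were all not well above background, lines are group means, and each panel has its own axis. Cd300lf and Cd300lg are high with tumour material in both genotypes, Cd300lb is low, and Cd300e is high in TFEB-wt tumour material and in 2 of 3 TFEB-tg control replicates.

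**Figure D2:**
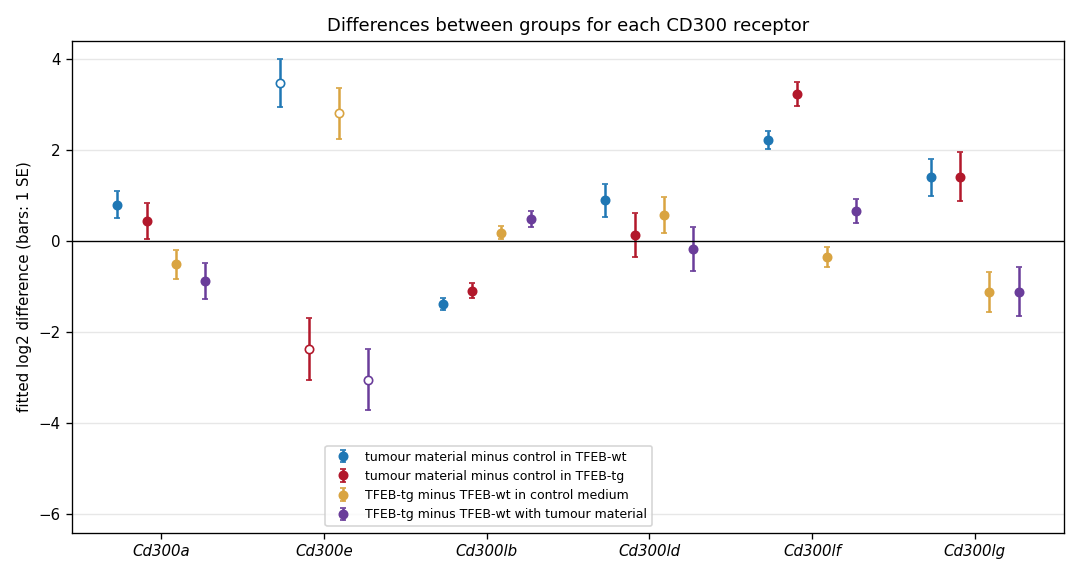
Fitted log2 difference for each receptor in the 4 comparisons, with bars of 1 SE from the limma fit with a slide term. Open points are differences in which one group was at background on every array, so that size and SE rest on background signal. This holds for all 4 points of Cd300e, between 3.47 and -3.05, while those of Cd300lf run from -0.35 to 3.23 and those of Cd300lb from -1.38 to 0.48.

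Cd300lf, an ITIM receptor that is also the entry receptor of mouse norovirus, differed with tumour material in both genotypes. Its brightest probe, A_55_P2081164 (NM_001169153), read 2.18, 1.67 and 1.68 in TFEB-wt control replicates 1 to 3 and 4.15, 4.20 and 3.87 with tumour material. In TFEB-tg cells the values were 1.14, 1.30 and 1.91 in control medium and 4.57 and 4.75 with tumour material. All 5 replicates with tumour material lay above all 6 control replicates, and the TFEB-tg tumour replicates lay above the TFEB-wt ones. The fitted difference with tumour material was 2.22 (SE 0.20) in TFEB-wt and 3.23 (SE 0.27) in TFEB-tg cells, and both responses differed by 1.02 (SE 0.34). That last value was 0.54 within slide 2 and 0.39 without slide column 4.

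In control medium the Cd300lf replicates of the genotypes overlapped, with a difference of -0.35 (SE 0.22) for TFEB-tg minus TFEB-wt that was -0.66 on slide 1, 0.35 on slide 2 and 0.27 without slide column 4. With tumour material TFEB-tg cells were 0.66 (SE 0.26) higher. In order of group means, Cd300lf was highest in TFEB-tg tumour material (4.66 ± 0.12, SD, n = 2), then TFEB-wt tumour material (4.07 ± 0.18, SD, n = 3), TFEB-wt control (1.84 ± 0.29, SD, n = 3) and TFEB-tg control (1.45 ± 0.41, SD, n = 3). Only the last pair of neighbours in this order overlapped.

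The other Cd300lf probes did not all follow. Probe A_52_P422494 (NM_145634) read -0.67, -1.32 and -1.17 in TFEB-wt control and 1.59, 1.39 and 1.24 with tumour material. The TFEB-tg replicates read -3.55, -1.46 and -0.49 in control medium, where replicate 1 was not above background, and 2.29 and 2.26 with tumour material. It thus ran the same way as the brightest probe, with fitted differences of 2.45 (SE 0.47) and 3.84 (SE 0.62). Probe A_55_P2004511, listed under the same accession as the brightest one, read 1.15, 1.5 and 0.88 in TFEB-wt control and 1.31, 0.62 and 1.10 with tumour material. With the transgene it read 1.47, 0.16 and -0.29 in control medium and 1.41 and 2.51 with tumour material. It showed no separation by medium in either genotype, with a difference of -0.07 (SE 0.37) in TFEB-wt and 1.94 (SE 0.48) in TFEB-tg cells, where TFEB-tg control replicate 1 reached the tumour range. The array design does not say which part of the transcript each probe reads.

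**Figure D3:**
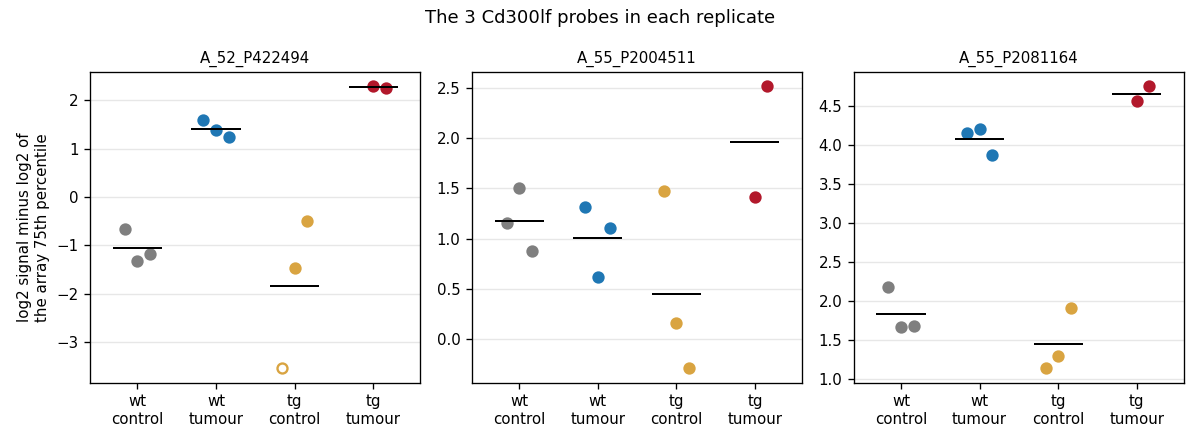
Level of the 3 Cd300lf probes (log2 signal minus log2 of the array's 75th percentile) in each replicate of the 4 groups, with lines at group means, open points for replicates not well above background and an axis per panel. A_52_P422494 and A_55_P2081164 separate tumour material from control in both genotypes, and A_55_P2004511 does not.

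Cd300a, the other ITIM receptor, had a lower group mean in TFEB-tg than in TFEB-wt cells in either medium. It read -0.17, 0.06 and -0.02 in TFEB-wt control and 1.32, 1.38 and 0.13 with tumour material. In TFEB-tg cells it read -0.30, -0.85 and -0.57 in control medium and -0.59 and -0.11 with tumour material. With repeat arrays averaged, every TFEB-wt replicate lay above every TFEB-tg replicate in the same medium, but TFEB-wt tumour material replicate 3 stood far below the others of its group. Both arrays of that replicate were low, at 0.17 and 0.09, so the gap lay between replicates and not between repeat arrays. TFEB-tg tumour material replicate 3 read -0.43 on its first array and 0.21 on the repeat in slide column 4. That repeat lay above both of these arrays, so the genotypes separated with tumour material only after averaging.

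Tumour material minus control for Cd300a was 0.80 (SE 0.30) in TFEB-wt cells, 1.04 within slide 1, -0.02 within slide 2, where the TFEB-wt groups are represented by replicate 3, and 1.41 without TFEB-wt tumour material replicate 3. In TFEB-tg cells it was 0.44 (SE 0.39) and the replicates overlapped. TFEB-tg minus TFEB-wt was -0.51 (SE 0.32) in control medium and -0.88 (SE 0.39) with tumour material, the latter -1.71 without that replicate. TFEB-wt tumour material had the highest mean (0.94 ± 0.71, SD, n = 3), separated from TFEB-wt control (-0.04 ± 0.12, SD, n = 3), while TFEB-wt control, TFEB-tg tumour material (-0.35 ± 0.34, SD, n = 2) and TFEB-tg control (-0.57 ± 0.28, SD, n = 3) overlapped from one to the next.

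Cd300lb, an activating receptor that signals through DAP12 and is known to bind phosphatidylserine and TIM proteins, ran against Cd300lf. It read 4.24, 4.43 and 4.56 in TFEB-wt control and 3.11, 3.03 and 3.05 with tumour material. In TFEB-tg cells the values were 4.34, 4.87 and 4.69 in control medium and 3.59 and 3.61 with tumour material. All tumour replicates lay below all control replicates, and the TFEB-tg tumour replicates lay above the TFEB-wt ones. It had the smallest SEs of the 6 receptors, with a fitted difference of -1.38 (SE 0.13) in TFEB-wt and -1.09 (SE 0.17) in TFEB-tg cells.

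Within slides, Cd300lb differed with tumour material by -1.34 on slide 1 and -1.53 on slide 2 in TFEB-wt cells and by -1.08 on slide 2 in TFEB-tg cells. TFEB-tg minus TFEB-wt was 0.18 (SE 0.14) in control medium, with overlapping replicates, and 0.48 (SE 0.17) with tumour material. The responses of both genotypes differed by 0.30 (SE 0.21). Its order was TFEB-tg control (4.63 ± 0.27, SD, n = 3), TFEB-wt control (4.41 ± 0.16, SD, n = 3), TFEB-tg tumour material (3.6 ± 0.02, SD, n = 2) and TFEB-wt tumour material (3.06 ± 0.04, SD, n = 3), in which only both control groups overlapped.

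Cd300ld, an activating receptor that can signal through the Fc receptor gamma chain, varied more within groups than between them. It read 2.38, 3.40 and 1.91 in TFEB-wt control and 3.64, 2.58 and 3.53 with tumour material. The TFEB-tg replicates read 2.50, 3.45 and 2.94 in control medium and 2.42 and 3.17 with tumour material. The replicates overlapped in every comparison. Repeat arrays of a replicate differed by -0.33, -0.34 and -0.09, less than the replicates of a group did. The group means ran from 2.56 ± 0.76 (SD, n = 3) in TFEB-wt control to 3.25 ± 0.59 (SD, n = 3) in TFEB-wt tumour material, and no neighbours in their order separated. The fitted differences were 0.89 (SE 0.37) for tumour material in TFEB-wt cells, 0.14 (SE 0.48) in TFEB-tg cells, and 0.57 (SE 0.40) and -0.18 (SE 0.48) between genotypes in control medium and with tumour material. Since Cd300ld has several near-identical copies beside it, its probe may read more than 1 of them.

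Cd300e, the activating receptor known from monocytes, was the only one of the 6 with whole groups at background. It passed the filter on dim probes, which asks for 1 group above background on all its arrays, through TFEB-wt tumour material alone. In TFEB-wt cells it was not above background on any of 4 control arrays, at -4.81, -3.18 and -4.51, and above it on all 4 arrays with tumour material, at -0.78, -1.0 and -0.64. With the transgene it read -3.04, -0.58 and -0.64 in control medium, above background on 2 of 3 arrays (replicates 2 and 3), and -3.26 and -3.92 with tumour material, above background on 0 of 3 arrays. The high values thus lay in TFEB-wt tumour material and in TFEB-tg control replicates 2 and 3, and TFEB-tg control replicate 1 was at background, as were all replicates of TFEB-wt control and TFEB-tg tumour material, which have no order among them.

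Where a whole group was at background, the fold of Cd300e is a lower bound, with the dim group set to the lowest signal well above background on each array or to the probe's own signal if higher. It was at least 4.04-fold higher with tumour material in TFEB-wt cells, and with tumour material it was at least 4.75-fold lower in TFEB-tg than in TFEB-wt cells. TFEB-tg control replicates 2 and 3, the 2 of 3 that were above background, were at least 5.44-fold above TFEB-tg tumour material and at least 4.63-fold above TFEB-wt control. With replicate 1 included at its background signal these folds came to 3.11 and 2.64, which are no bounds. The measured group means were -4.17 ± 0.87 (SD, n = 3) and -0.81 ± 0.18 (SD, n = 3) for TFEB-wt control and tumour material, and -1.42 ± 1.4 (SD, n = 3) and -3.59 ± 0.47 (SD, n = 2) for TFEB-tg control and tumour material. The fitted differences, which rest on signals at background and give no fold, were 3.47 (SE 0.52) and -2.38 (SE 0.68), and 2.32 and 3.99 between genotypes in control medium within slides 1 and 2. With normexp background correction, which adds an offset and so compresses dim signals, the 4 differences kept their signs at 0.86, -0.63, 0.54 and -0.96.

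Markers of other cells also varied between these groups. Of 7 monocyte markers on the array, 6 were above background in every group but TFEB-tg tumour material, which had 5, and Ccr2, a defining monocyte receptor, was above it on no array. Their summed linear level was 12.7 to 17.8 in TFEB-wt control, 14.6 to 18.7 with tumour material, 7.56 to 20.7 in TFEB-tg control and 9.74 to 10.3 with tumour material. All 10 neutrophil markers were above background in both control groups and 8 in both tumour groups, where Ngp and Retnlg were not. Their sum was 238 to 256 in TFEB-wt control and 91.5 to 119 with tumour material, 575 in TFEB-tg control replicate 1 against 178 and 197 in replicates 2 and 3, and 57.5 to 68.3 in TFEB-tg tumour material. Of 8 mast cell markers, 3 were above background in each group and Mcpt4, Fcer1a, Ms4a2, Cma1 and Mrgprb2 in none, with sums of 1.72 to 2.49 over both TFEB-wt groups, 1.19 to 6.34 in TFEB-tg control and 6.55 to 7.23 with tumour material. The sum of 8 fibroblast markers was 33.6 to 44.0 in TFEB-wt tumour material, 1.8 to 23.4 in TFEB-wt control and 9.94 or less in TFEB-tg cells, with Pdgfra above background in no group. The part of these markers in the CD300 levels was not tested, and in such bulk RNA fewer cells of a type and less RNA per cell cannot be told apart.

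The neighbours of Cd300e gave a further view of the same replicates. Of 7 other genes of the CD300 locus, 3 were on the array, and none of them passed limma's test in any comparison at an adjusted p of 0.05 (1 had an unadjusted p under 0.05 for tumour material in TFEB-tg cells, 1 between genotypes in control medium and 1 for the difference between responses). Cd300ld3 read -1.38, -0.84 and -1.13 in TFEB-wt control, -0.57, -0.76 and -0.90 with tumour material, -1.13, 0.57 and 0.13 in TFEB-tg control, and -1.35 and -1.12 with tumour material. Cd300ld4 read -1.59, -1.42 and -1.81, then -1.34, -1.54 and -1.56, then -2.04, -1.05 and -0.67, and last -1.90 and -1.63, in the same order of groups. Both were highest in TFEB-tg control replicates 2 and 3, and replicate 1 lay within the range of the other groups or below it. Over the 11 replicates, Cd300e correlated at 0.74 with Cd300ld3 and at 0.62 with Cd300ld4. These share arrays and scaling, and Cd300e lay at background in 6 of the replicates.

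For TFEB-tg cells the fitted difference with tumour material was -1.02 (SE 0.40, adjusted p = 0.0859) for Cd300ld3 and -0.61 (SE 0.33, adjusted p = 0.205) for Cd300ld4. Without TFEB-tg control replicate 1, 2 of the 3 locus genes passed the test as lower with tumour material in TFEB-tg cells. In the same setting 2 passed as higher in TFEB-tg than in TFEB-wt control cells. Of all 15834 genes, 2273 and 1196 did so, and this setting was chosen after seeing the data. Cd300c2 read between 5.37 and 6.13 in all 11 replicates, and its difference with tumour material was -0.28 (SE 0.13, adjusted p = 0.117) in TFEB-wt and 0.03 (SE 0.17, adjusted p = 0.915) in TFEB-tg cells. As the Cd300ld-like genes are near-identical copies in part, a probe may read more than 1 of them.

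**Figure D4:**
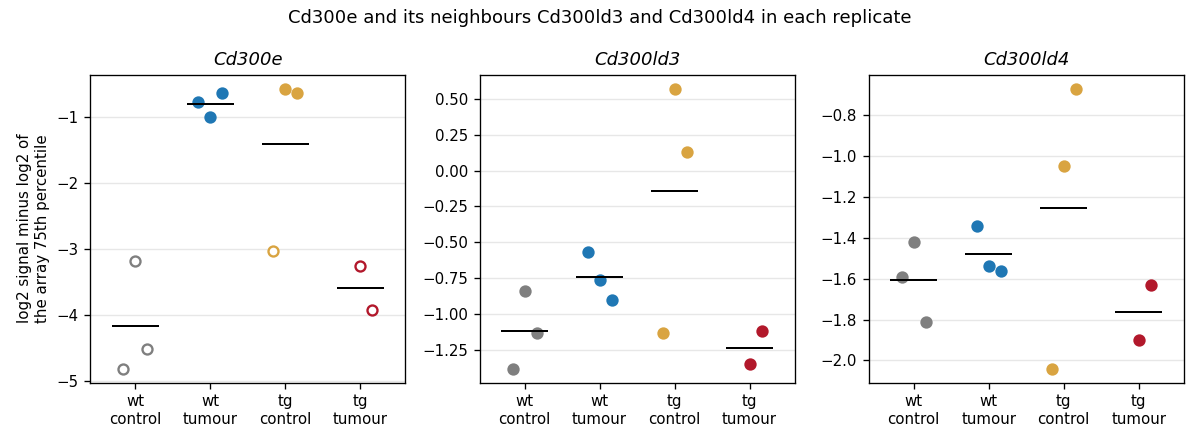
Level of Cd300e and of its neighbours Cd300ld3 and Cd300ld4 (log2 signal minus log2 of the array's 75th percentile) in each replicate of the 4 groups, with lines at group means and an axis per panel. In the Cd300e panel open points mark replicates not well above background. TFEB-tg control replicates 2 and 3 are the highest points for Cd300ld3 (0.57 and 0.13) and for Cd300ld4 (-1.05 and -0.67), and replicate 1 is not.

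Cd300lg, the nepmucin gene, was above background on every array. It read 1.59, 2.14 and 2.05 in TFEB-wt control and 3.39, 2.84 and 3.62 with tumour material. In TFEB-tg cells it read 1.23, 0.10 and 1.28 in control medium and 2.92 and 2.32 with tumour material. All 5 tumour replicates lay above all 6 control replicates, and the TFEB-tg control replicates lay below the TFEB-wt ones. Tumour material minus control was 1.4 (SE 0.41) in TFEB-wt and 1.41 (SE 0.54) in TFEB-tg cells, and TFEB-tg minus TFEB-wt was -1.12 (SE 0.44) in control medium and -1.11 (SE 0.53) with tumour material, where the replicates overlapped.

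For Cd300lg both arrays of TFEB-tg tumour material replicate 3 disagreed, at 3.34 on the first and 1.30 on the repeat in slide column 4, and 0.922% of tested genes were at least as far apart on them. Without slide column 4 the genotype difference with tumour material was -0.29 and that in control medium was -0.76. Its group means were 3.28 ± 0.40 (SD, n = 3) in TFEB-wt tumour material, 2.62 ± 0.42 (SD, n = 2) in TFEB-tg tumour material, 1.93 ± 0.29 (SD, n = 3) in TFEB-wt control and 0.87 ± 0.67 (SD, n = 3) in TFEB-tg control, and only the first pair in this order overlapped. Of 10 endothelial markers, 5 were on no array above background (Tek, Emcn, Esam, Tie1 and Cldn5), and Cdh5 was above it in TFEB-wt tumour material alone. The summed linear level of the 10 was 12.3 to 13.1 in TFEB-wt control, 11.9 to 13.8 with tumour material, 11.1 to 13.5 in TFEB-tg control and 15.0 to 15.8 with tumour material.

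Across the 11 replicates the receptors fell into related and opposed courses, given here as Pearson correlations of levels that share arrays and scaling. Cd300lb ran against Cd300lf (-0.88), Cd300lg (-0.89) and Cd300a (-0.72). Cd300lf and Cd300lg ran together (0.79), and Cd300e ran nearest to Cd300ld (0.63). The genes whose levels were most like Cd300lf were Cysltr2, a receptor for cysteinyl leukotrienes (0.99), Tgm1, a transglutaminase (0.98), and Ccl8, a monocyte-attracting chemokine (0.98). Those most like Cd300lb were Gamt, an enzyme of creatine synthesis, Pdp2, a phosphatase of the pyruvate dehydrogenase complex, and Fam53b, each at 0.99. Cd300lg was closest to Ccdc189 (0.99), Hk1, a hexokinase (0.98), and Mfsd14b (0.97).

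The other receptors had looser companions. Cd300e was most like Dcakd (0.96), Cd36, a scavenger receptor for lipids and apoptotic cells (0.93), and Sez6l2 (0.92). Cd300a was most like Cotl1, an actin-binding protein (0.89), Polg, the mitochondrial DNA polymerase (0.89), and Cst3, the protease inhibitor cystatin C (0.88). Cd300ld was most like Gm14325 (0.88), Chchd4, a mitochondrial import factor (0.88), and Mtfr1l (0.87). These are the highest values among 10974 named genes, over replicates that fall into 4 groups, and Cd300e lay at background in part of them.

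The partners through which CD300 receptors signal lay above the 75th percentile in every replicate. Among the 3 adaptors, 1 passed the test for tumour material in TFEB-wt cells, where 39.9% of all tested genes did. Fcer1g, the Fc receptor gamma chain, read 10.15, 10.26 and 10.25 in TFEB-wt control and between 10.45 and 10.86 with tumour material, a rise of 0.49 (SE 0.13, adjusted p = 0.0113, limma). It lost that call without TFEB-wt tumour material replicate 3 (0.31, adjusted p = 0.185) and under quantile normalization (0.05, adjusted p = 0.669), normexp correction (0.10, adjusted p = 0.405) and in the deposited matrix (0.06, adjusted p = 0.701). Tyrobp, the DAP12 adaptor, differed by -0.25 (SE 0.10, adjusted p = 0.0546) and Hcst, the DAP10 adaptor, by -0.55 (SE 0.22, adjusted p = 0.0643) in the same comparison. Both passed as lower without TFEB-tg control replicate 1, as did 3424 of all 15834 genes. None of the 3 passed in TFEB-tg cells by limma (1 at an unadjusted p under 0.05), where 25.3% of all genes did. With 1 replicate or slide column 4 left out, the differences there ran from 0.25 to 0.66 for Fcer1g. For Tyrobp they ran from -0.32 to -0.14 and for Hcst from -1.04 to 0.32. Between genotypes none passed in control medium (8.85% of all genes) or with tumour material (4.53%), and 0 had an unadjusted p under 0.05.

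Of the 3 phosphatases that bind ITIMs, only Ptpn11 (SHP-2) passed a test. It read 5.50, 5.54 and 5.47 in TFEB-wt control and 5.88, 5.86 and 5.73 with tumour material, a rise of 0.30 (SE 0.09, adjusted p = 0.016). Among other settings, the call was lost without TFEB-wt tumour material replicate 1 (adjusted p = 0.0545), without replicate 3 (adjusted p = 0.067), without TFEB-tg tumour material replicate 3 (adjusted p = 0.0755) and under quantile normalization (0.13, adjusted p = 0.276). Ptpn6 (SHP-1) differed by -0.26 (SE 0.26) and Inpp5d (SHIP-1) by -0.04 (SE 0.18) there. In TFEB-tg cells Ptpn6, Ptpn11 and Inpp5d differed by -0.09 (SE 0.34), 0.25 (SE 0.11) and -0.33 (SE 0.23), none past limma's test and 0 with an unadjusted p under 0.05.

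**Figure D5:**
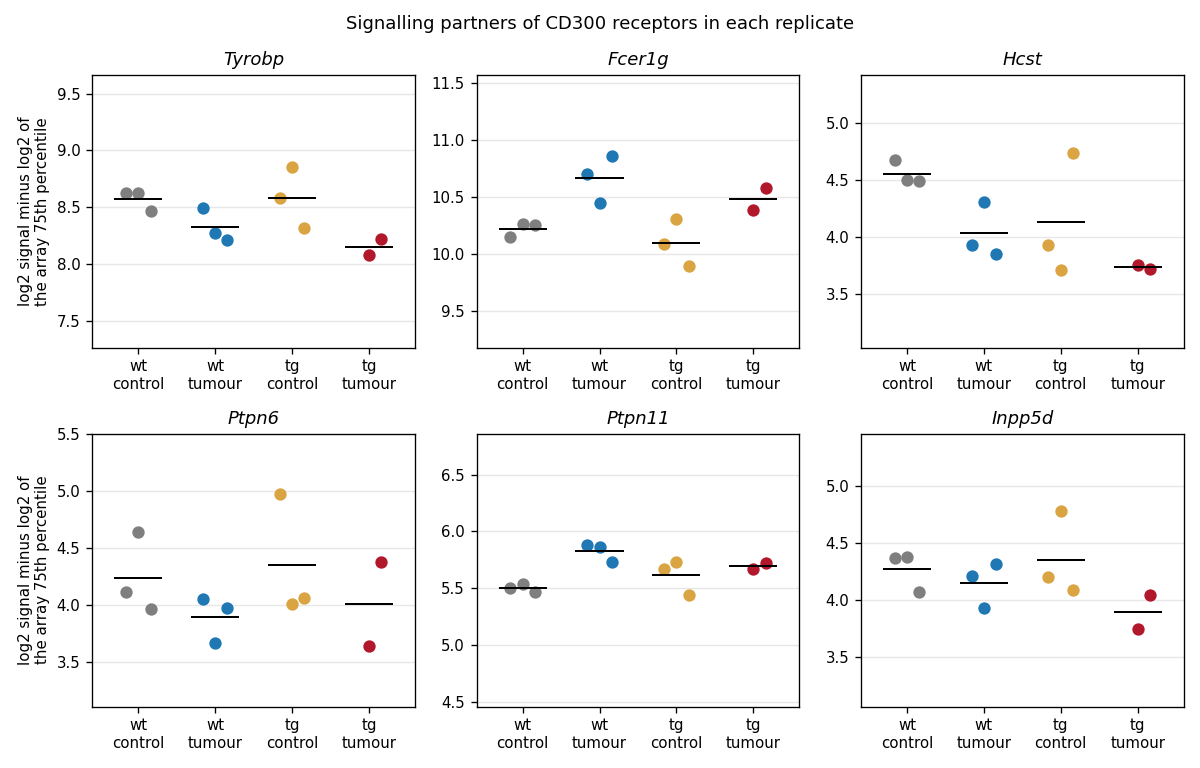
Level (log2 signal minus log2 of the array's 75th percentile) of the adaptors Tyrobp, Fcer1g and Hcst and the phosphatases Ptpn6, Ptpn11 and Inpp5d in each replicate of the 4 groups, with lines at group means and axes of equal span. Fcer1g and Ptpn11 are higher in all 3 TFEB-wt tumour replicates than in the TFEB-wt control replicates, and the spread of the others covers most differences between groups.

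Downstream of these partners, 6 of 23 tested signalling genes rose and 2 fell with tumour material in TFEB-wt cells (median over the 23 of 0.05), and 2 rose and 0 fell in TFEB-tg cells (median 0.02). Of all tested genes 23.1% rose and 16.7% fell in TFEB-wt cells, and 15.1% rose and 10.2% fell in TFEB-tg cells. Dok2, an adaptor that restrains tyrosine kinase signals, rose by 1.0 (SE 0.15, adjusted p = 0.000265) and the Src-family kinase Fgr fell by 1.86 (SE 0.41, adjusted p = 0.0038) in TFEB-wt cells. Of 16 tested genes that expose or make lipid ligands, 4 rose and 3 fell in TFEB-wt cells (median 0.09), and 4 rose and 2 fell in TFEB-tg cells (median 0.14). Atp8a1, a flippase that keeps phosphatidylserine on the inner membrane leaflet, rose in both by its brightest probe, by 2.12 (SE 0.24, adjusted p = 2.69e-05) and 2.38 (SE 0.31, adjusted p = 0.000171). The other kept probe of Atp8a1 differed by only 0.44 in TFEB-wt and by 1.2 in TFEB-tg cells. The scramblase Xkr8, which exposes phosphatidylserine in apoptosis, rose by 1.17 (SE 0.22, adjusted p = 0.00148) and the ceramide synthase Cers5 fell by 1.03 (SE 0.14, adjusted p = 9.91e-05) in TFEB-wt cells.

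Of 14 tested TIM proteins and receptors or bridging factors for apoptotic cells, 1 rose and 9 fell with tumour material in TFEB-wt cells, with a median of -1.31, where 23.1% of all genes rose and 16.7% fell. In TFEB-tg cells 0 rose and 3 fell, with a median of -0.62, where 15.1% of all genes rose and 10.2% fell. Without TFEB-tg control replicate 1, 9 fell, as did 2273 of all 15834 genes. Gas6, which bridges phosphatidylserine to Mertk and Axl, fell by 3.40 (SE 0.24, adjusted p = 6.98e-07) in TFEB-wt and by 2.45 (SE 0.31, adjusted p = 0.000144) in TFEB-tg cells. Stab2, a receptor for phosphatidylserine, fell by 2.80 (SE 0.16, adjusted p = 1.18e-07) and by 2.36 (SE 0.21, adjusted p = 8.56e-06). None of the 14 differed between both responses by limma's test of that difference (7 at an unadjusted p under 0.05), which 1.95% of all genes passed. Without TFEB-tg control replicate 1, 1 passed as higher and 1 as lower, as did 643 and 554 of all 15834 genes.

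Related paired receptors are given beside the 39.9% of all genes that passed for tumour material in TFEB-wt cells (23.1% higher, 16.7% lower) and the 25.3% in TFEB-tg cells (15.1% higher, 10.2% lower). Of 15 other inhibitory receptors tested, 6 rose and 2 fell in TFEB-wt cells (median 0.21), and 5 rose and 1 fell in TFEB-tg cells (median 0.38). Of 14 other activating receptors, 5 rose and 1 fell in TFEB-wt cells (median 0.57), and 7 rose and 0 fell in TFEB-tg cells (median 0.76). Without TFEB-tg control replicate 1, 9 rose in TFEB-wt cells, as did 4531 of all 15834 genes. The paired receptors Pilra, inhibitory, and Pilrb1, its activating partner, rose together, by 2.44 (SE 0.39, adjusted p = 0.000387) and 2.76 (SE 0.37, adjusted p = 0.000101) in TFEB-wt cells and by 3.52 (SE 0.51, adjusted p = 0.000355) and 3.32 (SE 0.48, adjusted p = 0.00036) in TFEB-tg cells. Of 3 tested receptors of the TREM family, 2 fell in each genotype, Treml1 and Trem2. Trem2 fell in TFEB-tg cells by 0.52 (SE 0.17, adjusted p = 0.0381), a call lost in 10 of 21 alternatives, with -0.33 (adjusted p = 0.281) without TFEB-tg control replicate 3 and adjusted p = 0.0564 with a replicate block. Treml1 fell by 1.62 (SE 0.23, adjusted p = 0.000156) in TFEB-wt and by 2.21 (SE 0.30, adjusted p = 0.000221) in TFEB-tg cells.

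Between genotypes in control medium, 1 inhibitory receptor was higher and 2 lower in TFEB-tg cells, and 2 activating ones were higher and 3 lower, where 3.6% of all genes were higher and 5.25% lower. With tumour material 1 activating receptor was higher and 1 inhibitory one lower, where 1.97% of all genes were higher and 2.56% lower. Without TFEB-tg control replicate 1, 1 inhibitory receptor was higher and 4 lower in control medium and 1 and 5 with tumour material. In the same setting 2 activating ones were higher and 7 lower in control medium and 1 and 4 with tumour material. Calls also grew over all 15834 genes there, to 1196 higher and 1515 lower in control medium and 958 and 1103 with tumour material. The main fit had 570 and 832, and 312 and 405. Siglece, an inhibitory sialic acid receptor, was 1.74 lower on the log2 scale in TFEB-tg than in TFEB-wt cells with tumour material (log2 difference -1.74, SE 0.18, adjusted p = 0.000243), with 3.76, 3.78 and 4.03 in TFEB-wt and 2.32 and 2.09 in TFEB-tg cells. The TFEB-tg replicates of Siglece with tumour material thus lay below the TFEB-wt ones, which held for 25.5% of all tested genes. Among the CD300 receptors this held for Cd300a (-0.88, SE 0.39) and Cd300e, while Cd300lb and Cd300lf lay the other way.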

How the data were processed

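RNA (200 ng per sample) was hybridised to single-colour Agilent arrays. The submitters' processing notes name Agilent Feature Extraction 10.7.3.1 for the scans. The deposited scanner files give a background-subtracted and spatially detrended signal intensity for each spot, per the file headers. The deposited series matrix holds log2 values, used only as an alternative. The scanner intensities were turned into log2 values here, and the log2 of each array's 75th percentile (83.9 to 144 in signal) was subtracted, whereas the deposited log2 matrix kept the authors' own normalization. Control spots and spots marked as uneven (166 to 270 per array) were left out. Spots of 1 probe were averaged. Probes that failed to rise well above background throughout at least 1 group were dropped, which left 20208, and each gene was tested by its brightest probe. Symbols came from probe accessions matched to a RefSeq table, for 28311 of 55634 probes. Gene order and the coordinates of promoter sequences are those of RefSeq's GRCm38.p6, and no coordinates of array probes are given.

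Groups follow the sample titles. Titles with the ending -2 were taken as second arrays of replicate 3, so 14 arrays make 11 replicates. limma 3.58.1 (R 4.3.3) fitted group means and a slide term over all 15834 genes, and treated the replicate as a random block for its repeat arrays (correlation 0.0717). Adjusted p-values come from this fit by the Benjamini-Hochberg method over all genes, with a threshold of 0.05. Comparisons were tumour material against control in each genotype, TFEB-tg against TFEB-wt in each medium, and one response against the other. Groups were called separated where replicates did not overlap, and the rule that replicates at background have no order was set after seeing the data. SDs are over replicates with repeat arrays averaged. The fit was also run on simulated data with independent noise on each array. These held no slide effect, no outlying replicate and no likeness of repeat arrays, so that run does not speak to these features.

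The family, the gene lists and the tests were chosen with earlier results of these data known. Named are the 6 receptors, the adaptors and phosphatases, of each other pathway list up to 3 passing genes with the largest difference per comparison (of these mainly ones whose call outlived leaving out any 1 replicate), the 3 genes most like each receptor, and Tfeb. Alternatives were quantile normalization, another percentile, normexp correction (on the median spot signal, since the files used give no mean, with an offset of 50), the deposited matrix, no filter, no slide term, single slides, averaged repeat arrays, every probe, a replicate block, and leaving out slide column 4 or each replicate.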

Additional observations from a re-analysis of the deposited data

Results flagged for a closer look

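In the test of the difference between both responses, 3 related receptors passed, out of 308 genes that did. Siglece, an inhibitory sialic acid receptor, rose less in TFEB-tg cells, with a difference of -1.34 (SE 0.22, adjusted p = 0.00902, limma). It lost that call without TFEB-wt tumour material replicate 3 (adjusted p = 0.135) and without TFEB-tg tumour material replicate 3 (adjusted p = 0.0781). Clec4n, the activating receptor Dectin-2, differed by 2.56 (SE 0.58, adjusted p = 0.0492), with TFEB-tg control replicates at 5.24, 3.13 and 3.34 against 6.30 to 6.80 in TFEB-wt control. Its call was lost when any 1 of 9 replicates was left out, with adjusted p of up to 0.343. Fcgr4, an activating Fc receptor, differed by -1.19 (SE 0.24, adjusted p = 0.0283), and its call was lost when any 1 of 7 replicates was left out, with adjusted p of up to 0.217.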

How the results depend on the processing

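Of 672 values of the receptors' 30 differences under alternatives, 614 moved by less than the spread between replicates. In 22 values the sign was opposite, in 7 differences of at most 0.80, of which 1 had separated its groups (Cd300a with tumour material in TFEB-wt cells, -0.02 within slide 2). Of 1934 such values of named pathway genes, 185 lost their call and 28 gained one. In 52 the sign was opposite, in 23 differences of at most 0.46, of which 0 had passed the test. Leaving out TFEB-tg control replicate 1 or slide column 4 from counts of receptors and lists was chosen after seeing the data. With either left out, 4 receptors separated the genotypes in control medium (37.6% and 61.8% of all genes did) beside 2 (20.8%). Tumour material in TFEB-tg cells was separated by 4 (63.5% and 86.6% of all genes) beside 3 (49.8%). With replicates at background ordered by signal, these counts were 3 and 4 (21.5% and 50.6% of all genes). For tumour material in TFEB-wt cells 6316 genes passed, 768 on slide 2 alone, and 4017 to 7955 with 1 replicate left out. For TFEB-tg cells it was 4000, 1761 on slide 2 alone and 2315 to 5285 with 1 left out. Between genotypes in control medium it was 1402, 914 without the filter, 768 with repeat arrays averaged and no slide term, and 423 to 2711 with 1 left out. Between genotypes with tumour material it was 717, 1114 with no slide term, 1584 without slide column 4 and 132 to 2061 with 1 left out. For the difference between responses it was 308, 185 without the filter, 172 with repeat arrays averaged, 824 without slide column 4 and 43 to 1197 with 1 left out. These last 3 comparisons gave 0 on slide 2 alone by limma, where 2126, 1769 and 1381 genes had an unadjusted p under 0.05. The causes were not tested, beyond the fewer samples of single slides and left-out replicates. The share of calls that were higher was 58.0% in TFEB-wt and 59.8% in TFEB-tg cells, but 45.5% and 46.9% with the percentile taken over probes above background on all arrays, which shifted the median gene by -0.12 and -0.11. In control medium it was 40.7% between genotypes and 54.3% with normexp correction. Of 15 same-numbered pairs of replicates, 3 correlated above 0.1 in their deviations from the group means (range -0.216 to 0.203). Deviations within groups of 2 or 3 are tied to each other, so these values do not settle whether equal numbers pair the samples. With a replicate block, the counts were 6153, 3673, 1120, 533 and 276. With 2 or 3 replicates a group, SDs are rough, and signals near background, as for Cd300e, carry little information on size.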
